A study of Homo sapiens with 6 samples.

Results

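The unfolded protein response and the integrated stress response were followed through 33 genes, chosen by their symbols: chaperones and folding factors of the endoplasmic reticulum (ER), ER-associated degradation, stress sensors, stress transcription factors and effectors of the integrated stress response. The annotation gave 32 of them a probe set with that gene as its only symbol, and these 32 were read among 19775 genes. SYVN1, the ubiquitin ligase of ER-associated degradation, had 1 probe set that carries several symbols and was not analysed here. The series set MCF10A cells labelled as with C/EBPbeta-2, one of the protein isoforms translated from CEBPB messenger RNA, beside MCF10A cells. Affymetrix arrays read their total RNA. Whether the control cells made this isoform themselves is not stated in the labels. MCF10A is a human mammary epithelial line that does not form tumours. Each group holds 3 arrays, and the group whose labels name just the cell line is called control. All 6 samples had no treatment and share 1 growth medium, which holds cholera toxin (100 ng/ml), EGF (10 ng/ml), hydrocortisone (0.5 µg/ml), insulin (10 µg/ml), glutamine (2.5 mM) and 5% horse serum. The sources used here do not say by what means the cells came to hold C/EBPbeta-2, whether they were 1 clone, or whether control cells carried a vector. Replicates are called biological, but nothing tells whether they were separate cultures, so p-values measure only the spread between these samples.

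When unfolded proteins collect in the ER, the sensors IRE1 (gene ERN1), PERK (gene EIF2AK3) and ATF6 act in parallel: IRE1 splices the XBP1 message, ATF6 is cut to a free transcription factor, and both raise chaperones and degradation factors. PERK phosphorylates the initiation factor eIF2, which slows translation while favouring that of ATF4. Other eIF2 kinases do the same when amino acids or heme run short, so ATF4 and its targets for amino acid synthesis, uptake and feedback make up an integrated stress response that needs no ER stress. C/EBP proteins can pair with ATF4 at composite promoter elements. The arrays read messenger RNA level only, and neither splicing of XBP1 nor phosphorylation of eIF2 is measured here.

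The values are log2 intensities, and 1 log2 unit is a 2-fold difference. CEBPB itself (probe set 212501_at) read 10.29, 10.50 and 11.38 with C/EBPbeta-2 and 11.27, 11.38 and 11.37 in control. Its log2 difference was -0.62 (SE 0.30, limma adjusted p = 1). Whether its probes read an introduced sequence was not examined here, so this does not check the labels. The mammary basal keratin gene KRT5 read 12.38 to 12.93 over the 6 arrays. Limma called 2 of 6 measured epithelial markers, a list of basal genes and the general epithelial genes CDH1 and EPCAM. With C/EBPbeta-2, KRT14, another basal keratin, fell by 3.00 log2 units (limma adjusted p = 0.03). CDH1, E-cadherin, fell by 2.14 (limma adjusted p = 0.0245). Of the luminal markers limma called 0 of 9, of the stromal 0 of 8 and of the leukocyte 0 of 7. The defining leukocyte marker PTPRC (3.11 to 3.63) and the stromal LUM (2.61 to 2.92) lay below 4.52, the median brightness of all probe sets. Others lay above it: CD14, a monocyte marker, read 6.85 to 7.28 with C/EBPbeta-2 and 5.98 to 6.45 in control (log2 difference 0.92, limma adjusted p = 0.266), CSF1R read 4.72 to 5.69, and the stromal COL1A1 and THY1 read 6.58 to 6.91 and 5.26 to 6.20. The stromal marker DCN read 7.11 to 11.76, with a log2 difference of -2.61 (limma adjusted p = 0.417), and the part of these markers in the results was not tested. Array-level controls did not follow the groups. C/EBPbeta-2 replicate 2 and control replicate 1 had the low poly-A spike-in levels (means of 3.73 and 3.86, 6.75 to 7.65 elsewhere). The same 2 arrays had the high ACTB 3' minus 5' values, which can rise with shortened RNA (1.32 and 1.48, elsewhere -0.04 to 0.64). Their GAPDH 3' minus 5' values were not high (0.22 and 0.12, elsewhere 0.21 to 0.32). For 18S ribosomal RNA, C/EBPbeta-2 replicate 1 (12.19) and control replicate 2 (12.17) were the high arrays, and the rest read 5.62 to 10.33.

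Several promoters of the ER genes share a sequence element that the choice of genes did not use. In the 250 bases before each RefSeq transcription start (GRCh38.p14, 35116 starts of 27305 genes, both strands searched), the ER stress response element, CCAAT and CCACG set 9 bases apart, was present in 7 of the 32 members that the promoter table holds (SYVN1 included, SLC7A11 not): HSPA5, HSP90B1, PDIA6, CALR, CANX, CRELD2 and XBP1. Of all genes, 0.0916% held it at 1 start or more. The other form of the element, ATTGG and CCACG set 1 base apart, was present in SDF2L1, HYOU1 and HERPUD1, 3 of 32 members, and in 0.0659% of all genes. Both forms share CCACG, and ATTGG is CCAAT on the other strand. The elements were defined from promoters of such ER genes, so their presence is a description. DNAJB9, DNAJC3, PDIA4, MANF, EDEM1, SEL1L and SYVN1 hold neither form in these windows. The stretches below are examples of an element held by 9 of the 16 chaperone and degradation genes and by the transcription factor gene XBP1. Capitals mark the element, which reads CGTGG first where it lies on the opposite strand.
HSPA5 at chr9:125241371-125241429, minus strand: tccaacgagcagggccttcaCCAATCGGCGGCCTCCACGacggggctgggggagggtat
HSP90B1 at chr12:103930196-103930254, plus strand: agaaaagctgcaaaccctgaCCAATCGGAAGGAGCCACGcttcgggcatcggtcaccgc
CALR at chr19:12938364-12938422, plus strand: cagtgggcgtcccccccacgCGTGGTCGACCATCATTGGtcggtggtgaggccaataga
CRELD2 at chr22:49918534-49918592, plus strand: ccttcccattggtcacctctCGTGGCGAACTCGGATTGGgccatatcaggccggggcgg
XBP1 at chr22:28800583-28800641, minus strand: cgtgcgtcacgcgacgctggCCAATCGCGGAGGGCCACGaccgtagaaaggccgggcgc
HYOU1 at chr11:119057254-119057304, minus strand: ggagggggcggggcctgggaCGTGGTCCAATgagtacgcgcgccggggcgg
HERPUD1 at chr16:56932005-56932055, plus strand: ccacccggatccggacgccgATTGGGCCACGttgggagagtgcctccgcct

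Elements tied to ATF4 and C/EBP proteins were searched in the same windows. TGATGNAA, the form of the amino acid and C/EBP-ATF response element searched here, was present in HERPUD1, ATF3, CHAC1 and ASNS, 4 of 32 members, against 3.89% of all genes. TTGCNNAA, a form of the C/EBP site, was present in EIF2AK3, ATF5, SESN2 and PPP1R15A, 4 of 32 members, a share near the 11% of all genes. No member holds both of these motifs. The sequences below are shown because CHAC1, ASNS and SESN2 were among the members that varied most between arrays, EIF2AK3 encodes the sensor PERK, and HERPUD1 holds both kinds of element. For ASNS the 250 bases before its start are shown whole. Capitals mark the motif on either strand, and a match of letters is not a bound site.
CHAC1 at chr15:40953242-40953289, plus strand: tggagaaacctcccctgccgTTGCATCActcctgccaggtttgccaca
HERPUD1 at chr16:56931946-56931993, plus strand: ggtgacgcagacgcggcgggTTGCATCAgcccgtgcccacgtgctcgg
ASNS at chr7:97872409-97872658, minus strand: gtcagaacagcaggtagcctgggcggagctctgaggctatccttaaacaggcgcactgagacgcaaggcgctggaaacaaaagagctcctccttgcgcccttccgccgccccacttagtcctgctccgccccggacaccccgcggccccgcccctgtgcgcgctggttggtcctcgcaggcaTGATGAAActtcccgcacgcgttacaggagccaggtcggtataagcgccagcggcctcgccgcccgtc
SESN2 at chr1:28259277-28259324, plus strand: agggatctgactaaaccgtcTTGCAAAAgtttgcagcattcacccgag
EIF2AK3 at chr2:88627465-88627509, minus strand: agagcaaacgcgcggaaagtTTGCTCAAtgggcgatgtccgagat

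None of the 32 members differed between the groups past the threshold. Limma called 0 of 32 at an adjusted p under 0.05, where 0.273% of all genes were called (54 of 19775: 18 higher with C/EBPbeta-2, 0.091%, and 36 lower, 0.182%). At an unadjusted p under 0.05 there was 1 member, ERN1, which was lower, beside 5.17% of all genes in either direction and 2.65% in the lower one. Groups that did not overlap were also found for 1 member, ERN1, beside 8.63% of all genes. The median log2 difference over the members was 0.09 against 0.01 over all genes, with 19 members above 0 and 13 below, where 51.9% of all genes were above 0. Single differences ran from -0.59 for ERN1 to 0.56 for the cystine transporter gene SLC7A11. In RNA from whole cultures, a few strongly changed cells and a slight change in all cells cannot be told apart.

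These intervals bound the differences unequally. The 95% interval lay within 1 log2 unit of 0 for 14 of the 32 members, and for 71.9% of all genes. For the other 18 members a 2-fold difference in at least 1 direction is inside the interval, so 3 arrays per group do not exclude it. The smallest difference called over all genes was that of CLMP (-1.35), so a 2-fold difference could go uncalled in any member. The narrowest interval belonged to CANX, the lectin chaperone calnexin, from -0.40 to 0.39, and the widest to ASNS, asparagine synthetase, from -3.05 to 2.62.

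**Figure D1:**
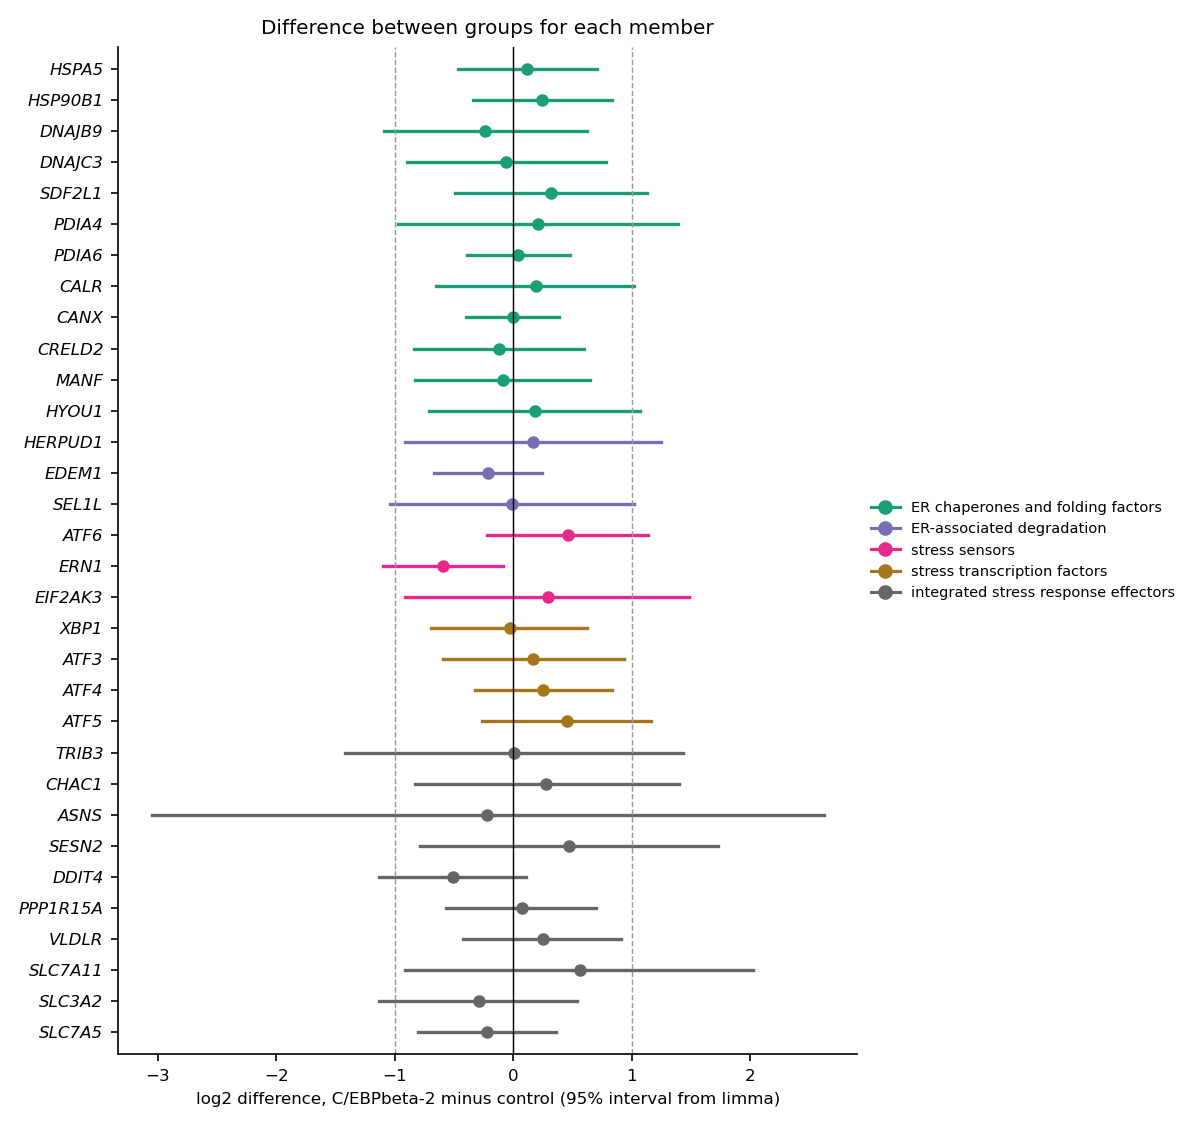
Log2 difference of C/EBPbeta-2 minus control for each of the 32 members with its 95% interval from limma (3 arrays per group), coloured by role; dashed lines mark 1 log2 unit, a 2-fold difference. All intervals but that of ERN1 (-1.10 to -0.09) contain 0, and that of ASNS is the widest.

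Among the ER chaperones and folding factors, 0 of 12 were called, and their differences lay between -0.24 and 0.32. HSPA5, which encodes BiP, the chaperone that holds the sensors inactive, read 11.40, 12.12 and 11.30 with C/EBPbeta-2 and 11.48, 11.39 and 11.59 in control. C/EBPbeta-2 replicate 2 was the single high array, and the groups overlapped, with a log2 difference of 0.12 (SE 0.25, limma adjusted p = 1). HSP90B1, the ER form of HSP90, was also highest on that array at 216449_x_at (10.32 against 9.41 to 9.91 on the other 5) and differed by 0.24. Its other probe set, 216450_x_at, was highest on control replicate 1 (9.06), read 7.89 on C/EBPbeta-2 replicate 2 and differed by -0.04 (SE 0.67). CANX stayed between 11.69 and 12.05 on all 6 arrays, and the disulfide isomerase gene PDIA6 between 10.42 and 10.86. These were the steadiest chaperone readings at the probe sets used, and for CANX that rests on 200068_s_at. The CANX probe sets 208852_s_at (9.54 to 10.97, difference -0.40) and 208853_s_at (8.49 to 10.61, difference -0.64, SE 0.63) varied more, and the mean of its probe sets differed by -0.19.

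Several folding genes were lowest on control replicate 1. PDIA4, a disulfide isomerase, read 9.71, 8.80 and 9.25 with C/EBPbeta-2 and 7.96, 9.83 and 9.35 in control. That is a range of 1.87 log2 units over arrays around a difference of only 0.21 (interval -0.97 to 1.39). These values rest on 211048_s_at. The other PDIA4 probe set, 208658_at, read 7.98 to 8.67, was lowest on control replicate 3 and differed by 0.16. HYOU1, an HSP70-like nucleotide exchange factor, read 8.23 on control replicate 1 and 9.04 to 9.54 on the other 5 arrays. SDF2L1, a partner of BiP, read 7.13 there and 7.66 to 8.44 elsewhere, and had the largest difference of the folding genes (0.32, interval -0.49 to 1.13). For MANF, a secreted ER stress factor, control replicate 1 was again the lowest array (9.07) and control replicate 2 the highest (10.10). Control replicate 1 is 1 of the 2 arrays with the low spike-in and the high ACTB 3' minus 5' value. Its GAPDH value was not high (0.12), and the part of these readings in the result was not tested. The ER lectin gene CALR, calreticulin, ran from 9.37 to 10.59 and the folding factor gene CRELD2 from 8.76 to 9.83, both highest on control replicate 2. The J-domain co-chaperone genes DNAJB9 (7.42 to 8.46) and DNAJC3 (8.25 to 9.27) differed by -0.24 and -0.06.

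**Figure D2:**
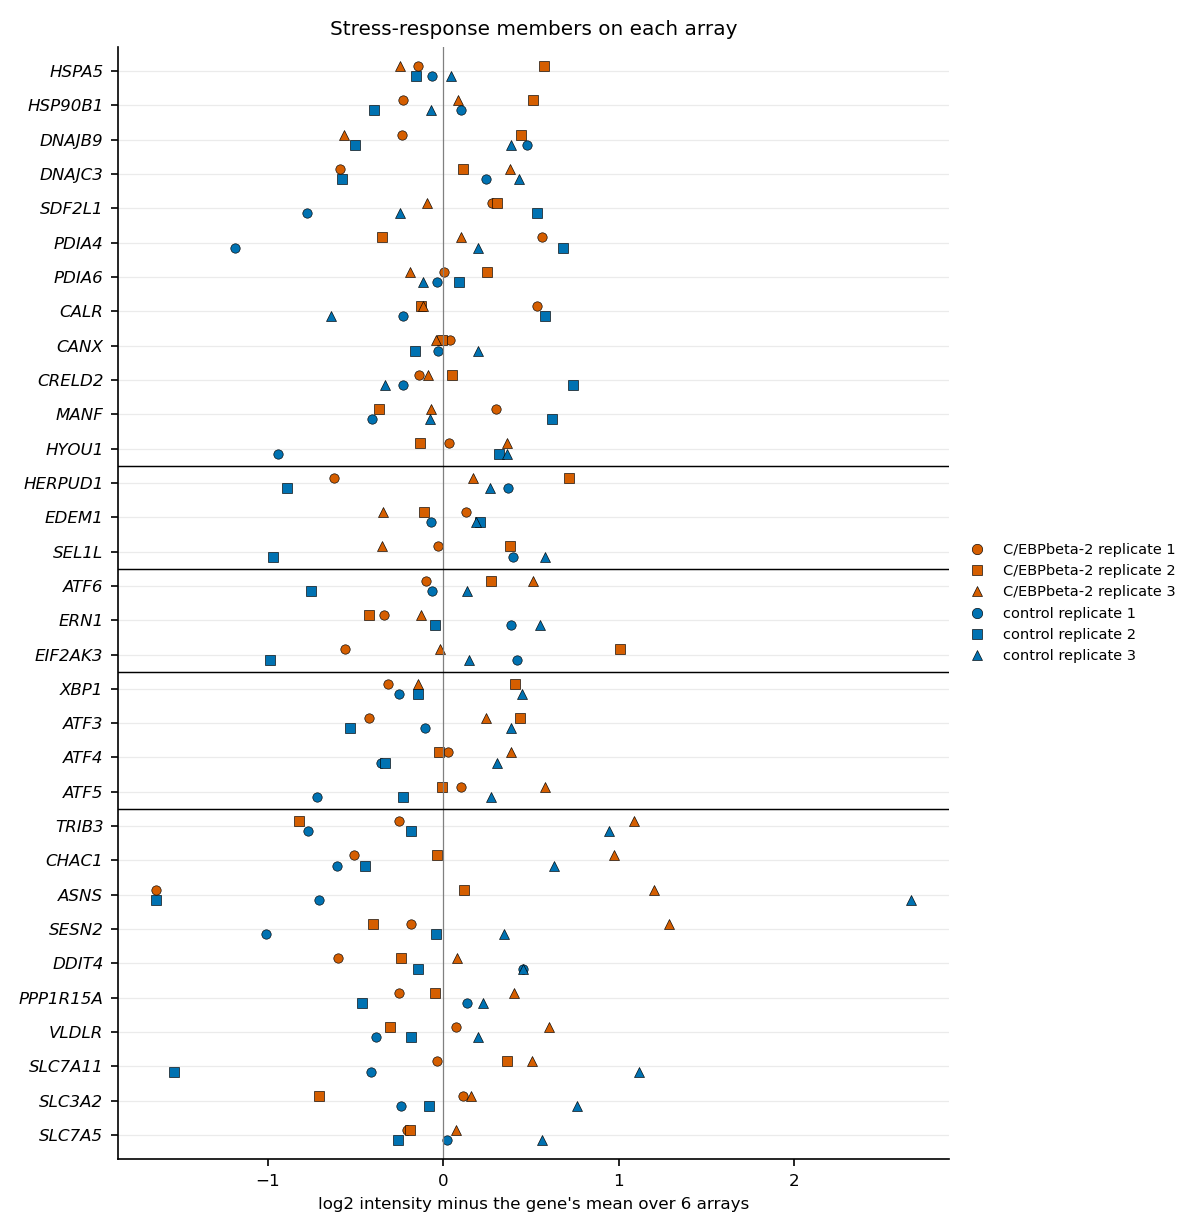
Log2 intensity of each of the 32 members on each array, as the deviation from that gene's mean over the 6 arrays; colour gives the group, marker shape the replicate number, and black lines part the roles in the order chaperones, degradation, sensors, transcription factors and effectors. Colours mix in nearly every row, and in the 10 effector rows at the foot the triangle of replicate 3 is the rightmost of each colour.

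ER-associated degradation was read through HERPUD1, EDEM1 and SEL1L, and 0 of 3 were called. HERPUD1, a membrane scaffold of the degradation complex, read 9.11, 10.45 and 9.90 with C/EBPbeta-2 and 10.10, 8.84 and 10.00 in control. The low arrays were C/EBPbeta-2 replicate 1 and control replicate 2, so each group held low and high values, and the difference was 0.17 (interval -0.91 to 1.25). SEL1L, the adaptor of the SYVN1 ligase, read 6.92 on control replicate 2 and 7.54 to 8.47 on the other 5 arrays, and differed by -0.01. EDEM1, which hands misfolded glycoproteins to degradation, reached at most 7.55, had a range of 0.54 log2 units and differed by -0.21 (interval -0.67 to 0.24).

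Of the 3 stress sensors, 0 were called. ERN1 (probe set 227755_at), the kinase and ribonuclease IRE1, read 4.91, 4.82 and 5.12 with C/EBPbeta-2 and 5.63, 5.20 and 5.80 in control. Every C/EBPbeta-2 array lay below every control array, with C/EBPbeta-2 replicate 3 (5.12) and control replicate 2 (5.20) the nearest pair. Its log2 difference was -0.59 (SE 0.21, interval -1.10 to -0.09), and limma's adjusted p over all genes was 0.757. With 1 array left out, limma's unadjusted p ran from 0.00588 to 0.0941. These values are near the 4.52 median of all probe sets, and the other probe sets of ERN1, 235745_at and 207061_at, gave -0.01 and -0.13. EIF2AK3, the kinase PERK, read 6.44, 8.01 and 6.98 with C/EBPbeta-2 and 7.42, 6.01 and 7.15 in control, a 4-fold range over arrays. C/EBPbeta-2 replicate 2 was the highest and control replicate 2 the lowest, and the difference was 0.29 (interval -0.91 to 1.48). ATF6 read 8.12 to 8.73 with C/EBPbeta-2 and 7.46 to 8.35 in control and differed by 0.46 (interval -0.22 to 1.14).

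At the probe sets used, EIF2AK3 and ATF6 were both lowest on control replicate 2, as were HERPUD1 and SEL1L. The ATF6 probe sets 231927_at (4.29) and 217550_at (4.60) were also lowest there. ATF6 203952_at was not, nor were the other probe sets of SEL1L, HERPUD1 and EIF2AK3, of which 241463_at of EIF2AK3 is dim (2.91 to 3.22). Control replicate 2 and C/EBPbeta-2 replicate 1 have the highest 18S ribosomal RNA readings, and the part of these readings in the sensor values was not tested. With a term for the spike-in level in the fit, limma again called 0 of 32 members, and 0 of 32 with the ACTB value as a covariate. Neither term models the 18S reading. The low spike-in and high ACTB arrays are 1 in each group, so these terms could move a group difference only a little.

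The stress transcription factors gave 0 calls of 4. ATF4, the activator whose own translation is raised when eIF2 is phosphorylated, read 11.89, 11.84 and 12.25 with C/EBPbeta-2 and 11.51, 11.53 and 12.17 in control. Replicate 3 was the high array in both groups, and the difference was 0.25 (SE 0.24, interval -0.32 to 0.83, adjusted p = 1). ATF5, a related factor regulated in the same way, read 6.74 to 7.33 and 6.03 to 7.02, again highest on replicate 3 of each group. It differed by 0.45 (interval -0.26 to 1.16) at 204998_s_at, and 204999_s_at had the same high arrays (0.31). The ATF5 probe sets 217389_s_at and 230938_x_at were instead highest on C/EBPbeta-2 replicate 1 and control replicate 2, with differences of 0.10 and 0. XBP1, whose spliced form drives chaperone genes, differed by -0.03 (interval -0.69 to 0.62). The stress-induced repressor ATF3 read 4.55 to 5.52 and differed by 0.17.

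The 10 effectors of the integrated stress response gave 0 calls, and ASNS among them had the widest range of the members. ASNS, the enzyme that makes asparagine, read 7.68, 9.44 and 10.52 with C/EBPbeta-2 and 8.61, 7.68 and 11.99 in control. Replicate 3 was the highest array of each group, and the 6 arrays spanned 4.32 log2 units, a 19.9-fold range. Between groups the difference was -0.22 (SE 1.19, adjusted p = 1). It turned to 1.07 without control replicate 3 and was -1.09 without control replicate 2.

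TRIB3, a pseudokinase that restrains ATF4, read 8.83, 8.26 and 10.17 with C/EBPbeta-2 and 8.31, 8.90 and 10.03 in control. The group means differed by 0.01, and each group held 1 array over 10, its replicate 3. CHAC1, a glutathione-degrading enzyme, read 4.21, 4.68 and 5.69 against 4.11, 4.27 and 5.35 and was likewise highest on replicate 3 of each group, with a difference of 0.28 (interval -0.83 to 1.40). SESN2, a leucine sensor that restrains mTORC1, read 7.06, 6.84 and 8.53 against 6.23, 7.20 and 7.59 and differed by 0.47 (interval -0.79 to 1.73).

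Amino acid carriers belong to the same arm. SLC7A11, the cystine-glutamate exchanger, read 8.95, 9.35 and 9.49 with C/EBPbeta-2 and 8.57, 7.45 and 10.10 in control. The C/EBPbeta-2 arrays lay inside the control range, and the difference of 0.56 (interval -0.91 to 2.02) was -0.07 without control replicate 2. Its partner SLC3A2, the shared heavy chain, read 9.63 to 10.50 and 10.10 to 11.10 and differed by -0.29. The leucine carrier SLC7A5 read 11.57 to 11.85 and 11.52 to 12.34 and differed by -0.22 (interval -0.80 to 0.36).

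DDIT4, an mTORC1 inhibitor also raised by hypoxia and glucocorticoid, read 10.85, 11.21 and 11.53 with C/EBPbeta-2 and 11.91, 11.31 and 11.91 in control. The groups overlapped through control replicate 2 alone, and the difference was -0.51 (SE 0.26, interval -1.13 to 0.11, limma adjusted p = 1). PPP1R15A, the phosphatase subunit that reverses eIF2 phosphorylation, read 5.52 to 6.39 and differed by 0.07. VLDLR, a lipoprotein receptor raised through PERK and ATF4, read 3.05 to 4.04, below the 4.52 median of all probe sets, so its difference of 0.25 has an uncertain size.

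Arrays of 1 group differed by role to unlike degrees. Within-group SD had a median of 0.65 over the 3 degradation genes, 0.62 over the 10 effectors, 0.47 over the 12 chaperones and folding factors, 0.40 over the 3 sensors, 0.39 over the 4 transcription factors and 0.30 over all genes. These medians rest on few genes and the roles were not tested against each other. ASNS had the rank 4 of 19775 genes in within-group SD, SLC7A11 the rank 478, TRIB3 560 and SESN2 1006. Because dim probe sets vary little, the comparison was repeated over the 12668 genes with a mean of at least 4.52. Of the 31 members in that range, 10 were in the upper 25% by SD, a share that all those genes have by construction, among them 5 of the 9 effectors, 2 of the 3 degradation genes and 2 of the 12 chaperones. At least 2 log2 units separated the highest and lowest array for 4 members (EIF2AK3, ASNS, SESN2 and SLC7A11), beside 6.25% of all genes.

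**Figure D3:**
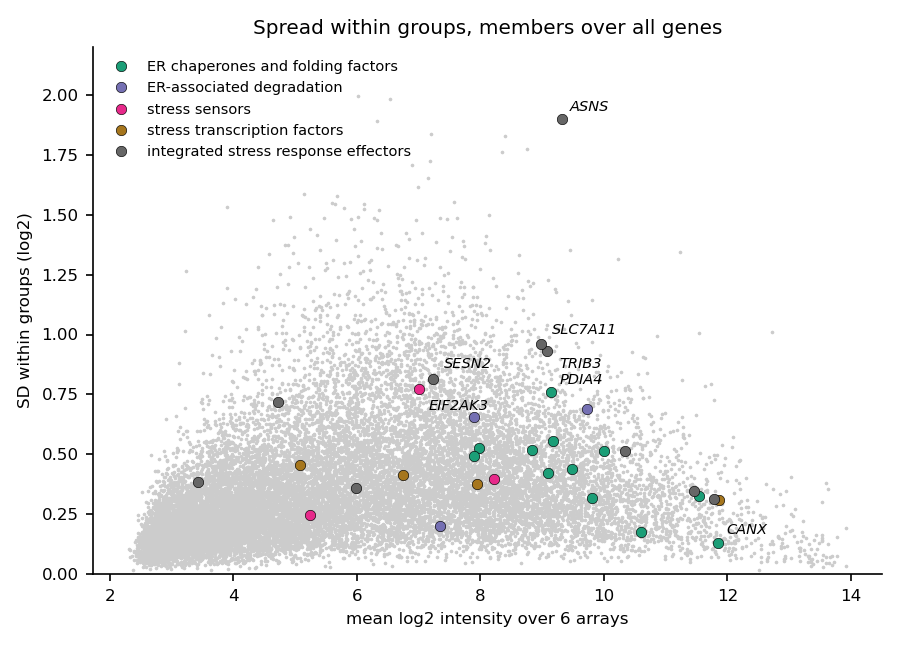
SD within groups (pooled over both groups, log2) against the mean log2 intensity over the 6 arrays, for 19775 genes in grey and the 32 members in colour by role. ASNS lies near the top of the plot, SLC7A11 and TRIB3 high among genes of their brightness, and CANX near the floor.

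The 32 members have 71 probe sets, and 21 members have more than 1. Fitted over all probe sets, limma called 0 of the 71, beside 0.0659% of all. At an unadjusted p under 0.05 there was 1, beside 3.98%, and groups did not overlap for 2, beside 7.62%. These 2 were the ERN1 probe set 227755_at and the ATF6 probe set 203952_at, which read 7.82, 7.75 and 7.94 with C/EBPbeta-2 and 7.60, 7.61 and 7.64 in control (log2 difference 0.22, SE 0.14). Of the other 39 probe sets, 7 gave a difference of the opposite sign to the one used.

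In all 10 effectors the highest array of each group was replicate 3, in both groups. This was noticed in these data and is a description. Over all genes the same held for 11% (2167 of 19775), and for 15.2% of the genes with a mean of at least 4.52. In DDIT4, control replicates 1 and 3 both read 11.91. Set against the mean of the other 2 arrays of its group, replicate 3 was higher by a median of 0.64 log2 units with C/EBPbeta-2 and 0.89 in control, where the median over all genes was -0.03 in both. The excess was 1.96 and 3.85 for ASNS, 1.63 and 1.43 for TRIB3, 1.24 and 1.17 for CHAC1, and 1.58 and 0.87 for SESN2, each in C/EBPbeta-2 and control. Among the 12 chaperones, replicate 3 was the highest array of both groups in 2, with median excesses of -0.06 and 0.11. It was so in 2 of 4 transcription factors (0.31 and 0.67), 2 of 3 sensors (0.26 and 0.44) and 0 of 3 degradation genes (-0.35 and 0.53). Of 14 other ER folding genes it was so in 4, and 12 had an excess above 0 in both groups (medians 0.23 and 0.28), as had 27.5% of all genes. The replicate 3 arrays had the highest spike-in levels (7.65 and 6.91), with 6.81 and 6.75 next. Their ACTB values (0.64 and 0.44) and 18S readings (10.09 and 10.33) lay between those of the other arrays. What the replicate 3 samples share beyond their number is not stated in the labels, and any part of it in these values was not tested.

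Genes of the wider amino acid response also varied between arrays. Limma called 0 of 14 measured genes of amino acid synthesis and transport, with 0 at an unadjusted p under 0.05. PHGDH, the entry enzyme of serine synthesis, read 7.97, 7.02 and 9.10 with C/EBPbeta-2 and 6.80, 7.61 and 10.06 in control, and differed by -0.12. ALDH1L2, a mitochondrial folate enzyme, read 5.03, 7.69 and 7.62 against 7.92, 5.55 and 9.34, a range of 4.31 log2 units, with a difference of -0.82 (SE 1.09, adjusted p = 1). PSPH, the last enzyme of serine synthesis, differed by -0.68 and SLC1A4, a neutral amino acid carrier, by -0.25. Control replicate 3 was the highest of the 6 arrays in 11 of these 14 genes and C/EBPbeta-2 replicate 3 in 0, where the effectors split 5 and 5. Replicate 3 was the highest array within both groups in 6 of the 14. Over all genes, control replicate 3 was the highest of the 6 arrays in 2076 of 19775. Of the 15 measured aminoacyl-tRNA synthetases of the cytosol, 0 were called and 0 had an unadjusted p under 0.05. Control replicate 3 was the highest array in 11 of them, and replicate 3 the highest within both groups in 10. CARS1, which charges the cysteine tRNA, read 9.68, 10.63 and 11.38 against 10.57, 9.81 and 11.71. The largest differences among the synthetases were those of LARS1 (-0.36), GARS1 (0.26) and VARS1 (0.25).

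**Figure D4:**
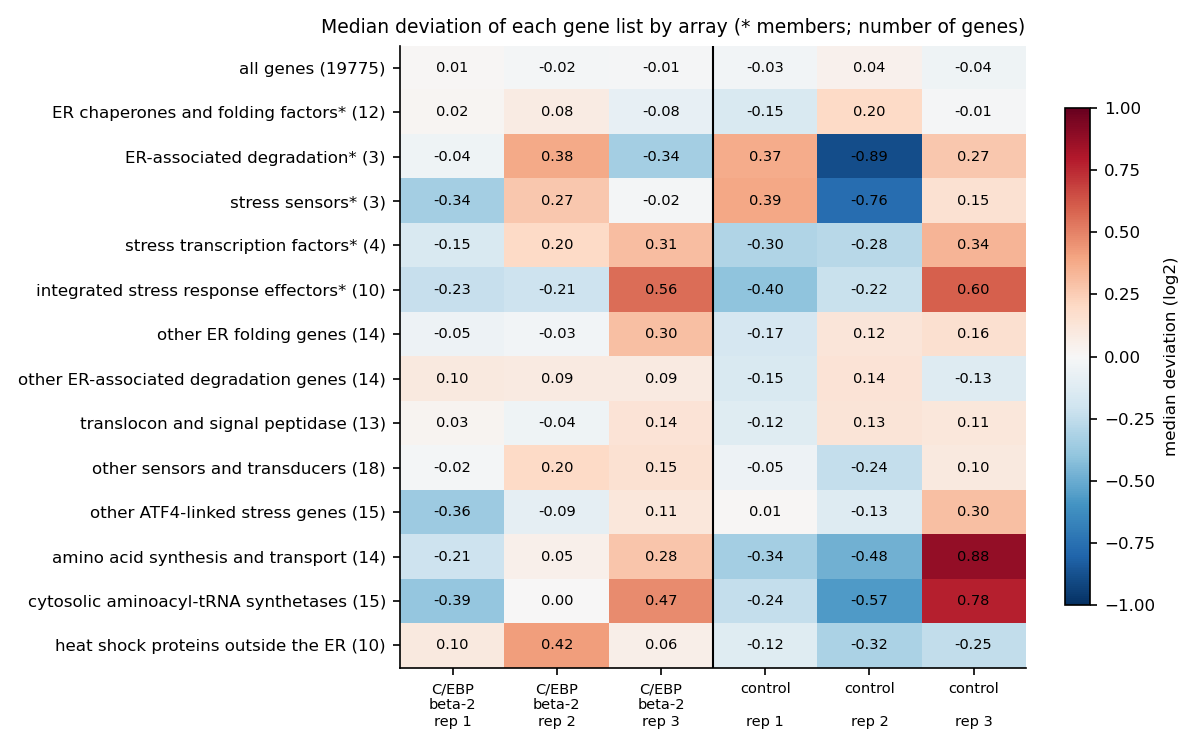
Median over the genes of each list of the log2 deviation from a gene's 6-array mean, by array, with the number of genes in brackets; an asterisk marks the roles of the members, and the first row is all genes. Effectors, amino acid genes and tRNA synthetases are highest on replicate 3 of both groups (0.56 and 0.60 for the effectors), while all genes stay between -0.04 and 0.04. So are the transcription factors (0.31 and 0.34), the other ATF4-linked genes (0.11 and 0.30) and the other ER folding genes (0.30 and 0.16).

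Of 15 other measured genes linked to ATF4, limma called 0, and 1 had an unadjusted p under 0.05. NUPR1, a small stress-induced chromatin protein, read 8.06, 6.94 and 8.34 with C/EBPbeta-2 and 8.98, 8.40 and 9.79 in control. The groups did not overlap, by a narrow gap, and the log2 difference was -1.28 (SE 0.47, limma adjusted p = 0.792). STC2, a secreted glycoprotein, differed by 0.53 and CBS, which makes cystathionine, by -0.39. DDIT3, the proapoptotic factor CHOP, read 6.59 to 7.60 with C/EBPbeta-2 and 6.67 to 7.33 in control. In 7 of the 15, replicate 3 was the highest array within both groups, beside 11% of all genes.

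The rest of the ER and sensor machinery gave 0 calls as well. WFS1, an ER membrane protein induced by ER stress, read 5.97, 6.35 and 6.54 with C/EBPbeta-2 and 5.52, 5.82 and 5.45 in control. All C/EBPbeta-2 arrays lay above all control arrays, with a log2 difference of 0.69 (SE 0.21, limma adjusted p = 0.59), and it was the only 1 of 18 other sensors and transducers at an unadjusted p under 0.05. Next in size there were MBTPS2, a protease that cuts ATF6 (0.38), and EIF2B3, a subunit of the eIF2 exchange factor (0.29). Among 14 other ER folding genes, FKBP14 (0.44), ERO1B (0.38) and DNAJB11 (0.32) had the largest differences. Of 14 other degradation genes these were EDEM3 (0.67), UFD1 (0.35) and ERLEC1 (0.33), and of 13 translocon and signal peptidase genes SEC62 (0.62), SSR4 (-0.24) and SSR3 (0.22). In each of these 3 lists 0 genes had an unadjusted p under 0.05.

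Heat shock proteins outside the ER were read beside the ER chaperones. The HSP70 genes HSPA1A, HSPA1B and HSPA8 have only probe sets with several symbols and were not analysed here. Of the 10 measured genes limma called 0, and 5 had an unadjusted p under 0.05, all higher with C/EBPbeta-2, beside 5.17% of all genes in either direction. Without C/EBPbeta-2 replicate 2 that count was 0 of 10, without another single array 2 to 4, with the replicate block 2, and 1 of the 6 genes left without probe sets ending in _x_at or _s_at. Under the other alternatives it was 3 to 6 of these 10 genes. Their median log2 difference was 0.47, against 0.08 for the 12 ER chaperones and folding factors and 0.01 for all genes, and the difference between these lists was not tested. HSPA4, a nucleotide exchange factor of cytosolic HSP70, read 10.58, 11.31 and 11.02 with C/EBPbeta-2 and 10.18, 10.04 and 10.51 in control. Its groups did not overlap, and the log2 difference was 0.72 (SE 0.24, limma adjusted p = 0.697). HSPA4 was read at probe set 208815_x_at, and without probe sets ending in _x_at or _s_at it differed by 0.39.

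BAG3, a co-chaperone of HSP70, read 10.49, 10.52 and 10.04 with C/EBPbeta-2 and 9.36, 10.15 and 9.50 in control, so the groups overlapped through control replicate 2, with a difference of 0.68. The J-domain protein gene DNAJA1 differed by 0.64, and its C/EBPbeta-2 replicate 2 stood highest at 11.64. HSP90AA1, the stress-inducible cytosolic HSP90, read 12.97, 13.22 and 13.16 against 12.71, 12.53 and 12.60, without overlap, and differed by 0.50 (SE 0.16, limma adjusted p = 0.655). The list also holds HSPD1 and HSPE1, the chaperonin pair of the mitochondrion, which differed by 0.18 and 0.44. Groups did not overlap for 5 of the 10 genes in the higher direction (HSPA4, HSP90AA1, HSP90AB1, HSPH1 and HSPE1), beside 4.62% of all genes, and for 1 in the lower, DNAJB1 (-0.31), beside 4.01%. C/EBPbeta-2 replicate 2 was the highest array in 8 of the 10, and it is 1 of the 2 arrays with the low spike-in level. With a spike-in term, which could move them only a little since each group holds 1 such array, the HSPA4 difference was 0.73 and that of HSP90AA1 0.51. Without C/EBPbeta-2 replicate 2 they were 0.56 and 0.45.

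**Figure D5:**
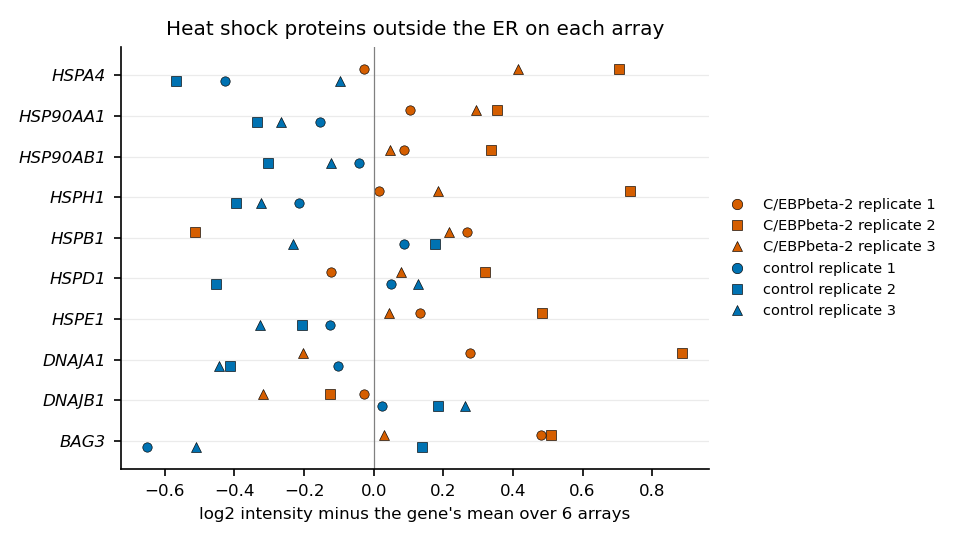
Log2 intensity of 10 heat shock proteins outside the ER on each array, as the deviation from the gene's mean over the 6 arrays; colour gives the group and marker shape the replicate number. The C/EBPbeta-2 arrays lie to the right of all control arrays in 5 rows and to the left in that of DNAJB1, and C/EBPbeta-2 replicate 2 is the farthest right in 8 rows.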

How the data were processed

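Expression in 6 samples was read from the deposited intensities, 1 per probe set and array, which the authors made with RMA (robust multi-array average) per the submitters' processing notes, with version and settings not stated. They were on a linear scale (4.17 to 17825), with array medians of 22.0 to 23.6, and were transformed to log2 with no further normalization. Of 54675 probe sets, 62 manufacturer's controls were set aside. Of the 41091 probe sets with 1 symbol, the one with the largest 6-array mean stood for each of 19775 genes. Limma 3.58.1 in R 4.3.3 (lmFit, eBayes) compared C/EBPbeta-2 minus control over all genes, two-sided, with Benjamini-Hochberg adjustment over all genes and a call at an adjusted p under 0.05. All SE, intervals and p-values come from limma, and the fit was checked on simulated data. The number of arrays limits the precision. Python 3.11.15 with pandas 2.3.3 and matplotlib 3.10.9 searched promoters and drew plots.

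The members and lists were chosen with earlier results of these data known. The text names all members and, of each other list, the called genes and up to 3 with the largest difference. CEBPB, DDIT3, CARS1, PHGDH and others outside this rule were chosen after their values were seen. List genes lacking a single-symbol probe set were not analysed here. Alternatives left out each array, added a replicate block, a spike-in term or the ACTB value, changed normalization, brightness filter, prior variance, weights or probe sets, or pooled no variance.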

Additional observations from a re-analysis of the deposited data

How the results depend on the processing

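Under all 18 alternatives limma called 0 of the measured members, with 0 to 3 at an unadjusted p under 0.05 and a lowest adjusted p of 0.163 (array weights, ERN1), and 0 of the other pathway genes. The members' median difference ran from -0.06 to 0.27. Over all genes 54 were called, against 8 to 20 when 1 array other than control replicate 2 was left out (75 without that array), 214 with array weights, 154 with the ACTB value, 23 over all probe sets, and 0 with the replicate block or without pooled variance. The samples share only a number: deviations from group means of same-numbered arrays correlated at -0.521, -0.597 and 0.343 for numbers 1, 2 and 3, over genes. Number 3 alone correlated best with itself, while C/EBPbeta-2 replicate 1 did so with control replicate 2 (0.651) and C/EBPbeta-2 replicate 2 with control replicate 1 (0.665). No label ties those arrays. The replicate block and the fit without pooled variance called 0 of all genes, so their counts of 0 members tell nothing further about the members.

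For uncalled differences the sign is not settled, and the cause of each turn was not tested. Only 10 of the 32 members kept their sign under every alternative run. Leaving out 1 array turned the sign of 22, whose ranges were HSPA5 -0.14 to 0.27, DNAJC3 -0.36 to 0.22, PDIA4 -0.34 to 0.60, PDIA6 -0.07 to 0.15, CALR -0.08 to 0.53, CANX -0.08 to 0.09, CRELD2 -0.31 to 0.22, MANF -0.31 to 0.20, HYOU1 -0.25 to 0.41, HERPUD1 -0.23 to 0.53, SEL1L -0.49 to 0.28, EIF2AK3 -0.14 to 0.64, XBP1 -0.24 to 0.18, ATF3 -0.06 to 0.42, TRIB3 -0.54 to 0.48, CHAC1 -0.13 to 0.67, ASNS -1.09 to 1.07, SESN2 -0.06 to 0.79, PPP1R15A -0.15 to 0.21, SLC7A11 -0.07 to 1.25, SLC3A2 -0.49 to 0.01, SLC7A5 -0.40 to 0.01. Other alternatives turned 11: with quantile normalization again TRIB3 (-0.03), with each array centred on its median CANX (0.02) and SEL1L (0.02), with array weights HSPA5 (-0.05), CRELD2 (0.14), MANF (0.05), HERPUD1 (-0.06), EIF2AK3 (-0.03) and SLC7A11 (-0.05), averaging all probe sets of a gene ATF3 (-0.01), without _x_at and _s_at probe sets ATF3 (-0.03) and ASNS (0.02), and with a spike-in term SEL1L (0.03) and TRIB3 (-0.07).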

Other observations

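The 6 effector probe sets that did not stand for their gene show the replicate 3 pattern in part: 3 of 6 were highest on replicate 3 of both groups, against 12% of all probe sets, and they share genes and samples with those on which the pattern was noticed. TRIB3 was read the same way by 1555788_a_at (8.28 and 8.16 on replicate 3, 5.64 to 6.46 on the other 4 arrays), and SESN2 by 223196_s_at (8.08 and 6.81 on replicate 3, 5.92 to 6.58 on the others). For PPP1R15A, 202014_at read 5.28 and 5.08 on replicate 3 and 4.66 to 4.96 on the others. The other 3 were the dim ASNS probe set 241082_at (2.48 to 2.98), and 217678_at and 207528_s_at of SLC7A11, whose C/EBPbeta-2 maximum was on replicate 2 (8.70 and 6.18).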
